A study of Drosophila melanogaster with 3 samples.

Results

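Summits of Ultraspiracle (USP) binding at divergent promoter pairs were the 1400 of 11195 summits (12.5%) of the IDR-thresholded peak list that lay within 500 bp of one of a pair of head-to-head transcription start sites (TSSs). IDR stands for irreproducible discovery rate and scores how well peaks repeat between replicates. A divergent pair was a TSS of a protein-coding gene on the minus strand and a TSS of another on the plus strand, at most 1000 bp apart and transcribed away from each other. Beyond membership in the list, no measured value entered that choice. They were set against 3027 summits (27.0%) within 500 bp of a protein-coding TSS without such a partner, called single coding promoters here, and the other 6768 summits (60.5%) lay at no coding promoter.

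All libraries came from 1 group, the whole wandering larvae of the last larval instar, males and females pooled, of a Drosophila melanogaster line that stably expresses usp with eGFP fused to its C terminus. The labels do not say what drives the tagged usp, or whether it adds to or replaces the native copy. Chromatin immunoprecipitation and sequencing (ChIP-seq) used an anti-GFP antibody on 3 biological replicates, and no second genotype or stage enters any comparison here. Whole larvae mix all tissues, so strong binding in few cells and weak binding in many cannot be told apart. Every replicate was reduced to its 11195 peaks of highest signal, the length of the IDR-thresholded list, which was derived from replicates 2 and 3 alone. Signal is the authors' score of each peak and served only to rank peaks within a list. The number of reads behind each library is unknown from these files.

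USP is the insect counterpart of the vertebrate RXR nuclear receptors. With the ecdysone receptor EcR it forms the heterodimer that reads the moulting hormone at inverted repeats of a short nuclear receptor core sequence. Many housekeeping genes of flies are arranged head to head and share a short intergenic stretch, where the DNA replication-related element (DRE) and the core of the BEAF-32 insulator protein's site are common.

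The stretch shared by such genes is shown for 5 pairs in which the strongest summit lay between the TSSs and the interval held no annotated exon. EloB/Srp14 and Cp190/CG4338 were among the strongest with TSSs 201 to 300 bp apart. CG11035/unc-45, brun/CG2614 and Ppat-Dpck/scny were shown as pairs of at most 300 bp whose summit had a DRE within 100 bp. EloB encodes Elongin B, Srp14 a subunit of the signal recognition particle, Cp190 an insulator protein, unc-45 a myosin chaperone and scny a ubiquitin protease. The intervals were chr3R:20579851-20580114 for EloB/Srp14, chr3R:15275242-15275521 for Cp190/CG4338, chr3R:8033010-8033300 for CG11035/unc-45, chr2L:20656179-20656425 for brun/CG2614 and chr3L:5768795-5769001 for Ppat-Dpck/scny. They are given on the plus strand of dm6, from the RefSeq copy of release 6, with 1-based coordinates. Capitals mark the DRE (TATCGATA), the BEAF-32 core (CGATA), motif 1 of fly promoters (GGTCACACT), the TATA box (TATAAA), an E-box (CAGCTG) and the single receptor core AGGTCA, on either strand, and the DRE contains the BEAF-32 core.
EloB/Srp14: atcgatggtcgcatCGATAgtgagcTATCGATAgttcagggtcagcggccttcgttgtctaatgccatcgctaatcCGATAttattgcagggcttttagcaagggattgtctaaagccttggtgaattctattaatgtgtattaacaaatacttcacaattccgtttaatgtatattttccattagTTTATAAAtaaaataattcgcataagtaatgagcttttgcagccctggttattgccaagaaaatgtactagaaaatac
Cp190/CG4338: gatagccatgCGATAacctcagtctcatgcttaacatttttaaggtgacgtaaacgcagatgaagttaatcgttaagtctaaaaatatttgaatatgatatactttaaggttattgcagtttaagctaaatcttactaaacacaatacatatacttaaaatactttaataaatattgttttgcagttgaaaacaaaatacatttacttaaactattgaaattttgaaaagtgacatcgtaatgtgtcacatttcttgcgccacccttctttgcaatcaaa
CG11035/unc-45: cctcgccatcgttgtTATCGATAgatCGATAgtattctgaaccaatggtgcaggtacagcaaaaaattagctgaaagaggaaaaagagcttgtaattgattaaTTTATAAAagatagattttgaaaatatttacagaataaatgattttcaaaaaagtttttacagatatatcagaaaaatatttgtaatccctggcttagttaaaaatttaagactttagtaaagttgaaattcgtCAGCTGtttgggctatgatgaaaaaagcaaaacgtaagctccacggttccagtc
brun/CG2614: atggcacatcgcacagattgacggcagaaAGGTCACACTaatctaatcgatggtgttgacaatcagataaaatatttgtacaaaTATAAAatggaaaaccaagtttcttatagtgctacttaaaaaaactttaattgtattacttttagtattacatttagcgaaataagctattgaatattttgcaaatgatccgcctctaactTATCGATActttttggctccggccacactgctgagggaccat
Ppat-Dpck/scny: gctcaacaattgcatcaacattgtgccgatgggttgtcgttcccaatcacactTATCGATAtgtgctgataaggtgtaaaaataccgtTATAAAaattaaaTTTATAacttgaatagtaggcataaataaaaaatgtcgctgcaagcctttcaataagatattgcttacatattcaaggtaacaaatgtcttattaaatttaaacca
The summit fell on base 88 of the 264 bases of EloB/Srp14 and on base 152 of 280 in Cp190/CG4338. It fell on base 87 of 291 in CG11035/unc-45, on base 123 of 247 in brun/CG2614 and on base 92 of 207 in Ppat-Dpck/scny. EloB/Srp14 ranked 281 in the IDR-thresholded list and 233, 483 and 239 in replicates 1, 2 and 3. brun/CG2614 ranked 1611 there, 1368 in replicate 1 and 1455 in replicate 3, and the full list of replicate 2 had no summit within 100 bp.

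The annotation held 2667 divergent pairs of protein-coding genes, made of 5052 of 13945 coding genes (36.2%) and 6037 of 19253 distinct coding TSSs. The median distance between the TSSs was 301 bp, with quartiles of 163 and 502 bp. A summit of the IDR-thresholded list lay at 1170 of these pairs (43.9%). The replicates' own lists had a summit at 1192, 1079 and 1241 pairs, or 44.7%, 40.5% and 46.5%. Of the 1170 pairs 868 had 1 summit, 264 had 2 and 38 had 3 or 4. In 754 of them (64.4%) the same summit lay within 500 bp of TSSs on both sides, so the genes of a pair, and pairs that share a gene, are not independent. The median distance between the TSSs was 300 bp in pairs with a summit and 302 bp in pairs without.

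USP summits were more frequent at TSSs of divergent pairs than at single coding TSSs. In the IDR-thresholded list 2308 of 6037 divergent TSSs (38.2%) and 3130 of 13216 single TSSs (23.7%) had a summit within 500 bp, and over all coding TSSs the share was 28.2%. Among the strongest peaks of replicates 1, 2 and 3, divergent TSSs with a summit made up 38.6%, 34.7% and 40.9%, against 23.1%, 23.1% and 24.2% of single TSSs. The lowest divergent value lay above the highest single value. The difference was 14.6 ± 2.63 percentage points (SD, n = 3), higher in 3 of 3 replicates, and the exact two-sided sign-flip permutation test gave p = 0.25, the smallest that 3 replicates allow, so this design cannot reach 0.05. With 1 TSS per gene the difference was 15.7 ± 2.68 points. It was 4.84 points when each list was reduced to its 5597 strongest peaks. A summit between close TSSs counts for each of them.

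The share of bound TSSs varied with the distance to the partner. It was 44.6% ± 6.29 (SD, n = 3) for TSSs up to 100 bp from their partner, 36.0% ± 3.07 at 101 to 200 bp, 45.1% ± 5.29 at 201 to 300 bp, 37.9% ± 2.80 at 301 to 500 bp and 30.8% ± 0.582 at 501 to 1000 bp. Replicate 2 was the lowest in each class. The widest class had the lowest mean and still lay above the 23.5% ± 0.647 of single TSSs in each replicate. Among the 4 narrower classes that at 101 to 200 bp was the lowest in each replicate.

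**Figure D1:**
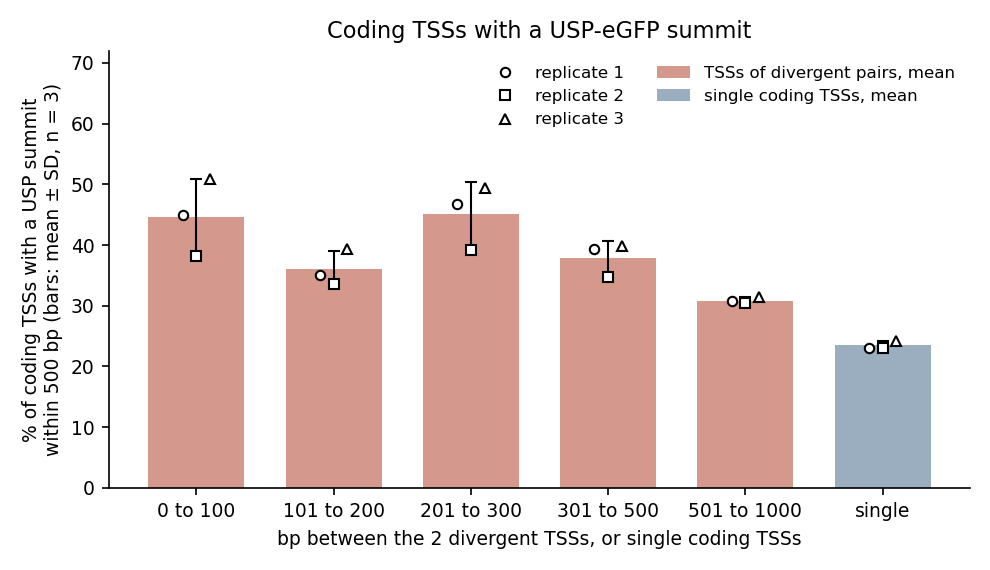
Percent of protein-coding TSSs with a USP-eGFP summit within 500 bp, for TSSs of divergent pairs by the distance between the 2 TSSs (red) and for single coding TSSs (blue). Bars are means, error bars SDs over 3 replicates and symbols the replicates, and the class at 501 to 1000 bp, with a mean of 30.8%, is the lowest of the divergent classes, above 23.5% for single TSSs.

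The share of divergent pairs with a summit was lowest on chromosome 4, and so was the share of single TSSs. It was 39.5% on 2L, 44.2% on 2R, 44.6% on 3L, 44.8% on 3R and 47.6% on X. On chromosome 4 none of 11 pairs had a summit in the IDR-thresholded list, and 9.09% had one in replicate 1. Of the single TSSs on chromosome 4 only 4.39% had a summit. On 2L, 2R, 3L, 3R and X the share of divergent TSSs with a summit, 34.7% to 40.7%, exceeded that of single TSSs, 20.5% to 26.1%.

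Where the TSSs were 201 to 300 bp apart, summits concentrated between them. Of the 1400 summits 666 (47.6%) lay between the TSSs of the pair whose midpoint was nearest, 373 lay beyond the minus-strand TSS and 361 beyond the plus-strand TSS. The replicates placed 48.3%, 40.6% and 49.4% of their divergent-pair summits between the TSSs, against 27.9%, 28.7% and 27.5% of the bases in the windows searched. Choosing the nearest midpoint can itself favour the interval, so the same shares were taken for the 1561 of 3891 TSS pairs whose window overlaps that of no other pair, a choice made after the data had been seen. There 43.9%, 33.8% and 46.0% of summits lay between the TSSs, against 27.1%, 28.1% and 26.7% of the bases. The excess was 14.0 ± 7.31 percentage points (SD, n = 3, exact sign-flip p = 0.25).

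The position of the summit varied with the distance between the TSSs in these isolated pairs. With TSSs at most 100 bp apart, 25.3% ± 5.28 of summits (SD, n = 3) lay between them, against 5.59% of the bases. At 101 to 200 bp the share was 39.9% ± 11.2, against 12.5% of the bases. At 201 to 300 bp it reached 66.8%, 56.1% and 74.1% in replicates 1, 2 and 3, a mean of 65.7% ± 9.06 against 20.4% of the bases. This was the highest share of the 5 classes in every replicate. At 301 to 500 bp the mean was 39.2% ± 8.65 against 27.9% of the bases. At 501 to 1000 bp the order turned round, with 30.0% ± 2.37 of summits against 41.2% of the bases. Over all pairs with the nearest midpoint the widest class had 41.3% ± 1.86 of summits and 41.8% of the bases. The exact sign-flip p was 0.25 in each class of isolated pairs, the smallest possible. The share of bases takes summits as evenly spread over the window. Summits of single promoters also lay near the TSS, at a median of 126 bp, and such crowding was not allowed for.

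**Figure D2:**
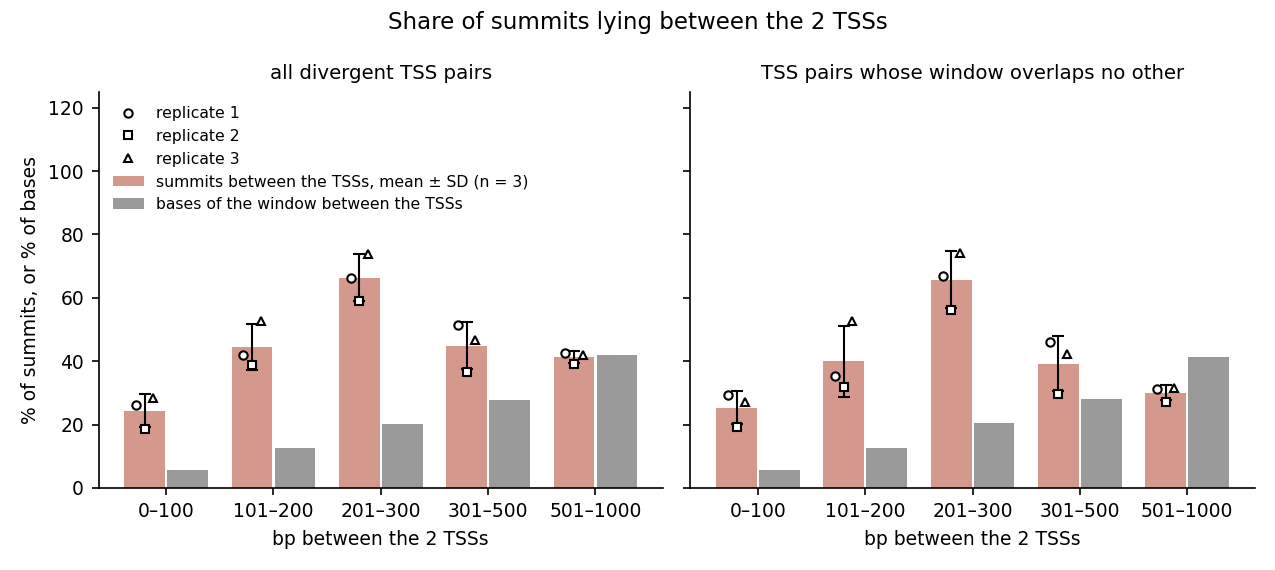
Percent of divergent-pair summits lying between the 2 TSSs (red, mean ± SD over 3 replicates, symbols for replicates) beside the percent of bases of the searched window that lie there (grey), by the distance between the TSSs. Left, all divergent TSS pairs, and right, the pairs whose window overlaps no other. At 201 to 300 bp about 66.4% and 65.7% of summits lay between the TSSs against 20.3% and 20.4% of the bases.

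The strands were near balance, with 692 summits nearer the minus-strand TSS, 706 nearer the plus-strand TSS and 2 at the midpoint. The median summit was 219 bp from the midpoint, and 500 of the 1400 (35.7%) lay within 100 bp of it. Divergent-pair summits lay a median of 104 ± 5.86 bp from the nearest TSS of a divergent pair. Those of single promoters lay 126 ± 5.69 bp from the nearest single coding TSS (SD, n = 3). Of the divergent-pair summits 39.1% ± 5.22 were upstream of that TSS, against 58.1% ± 0.817 at single promoters (exact sign-flip p = 0.25 for either measure). Bases upstream of a divergent TSS are limited to its side of the shared interval, so the shares of the groups do not rest on equal lengths.

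Of the 264 pairs with 2 summits 101 had both in the same transcribed side, 85 had 1 between the TSSs and 1 beyond, 56 had 1 on each side and 22 had both between. The summits of a pair were a median of 209 bp apart. The closest were 199 bp apart and the farthest 1803 bp, so the median lay near the smallest spacing. The 1400 summits lay in only 1185 peak intervals, so summits of a pair can share an interval. Whether they mark separate sites was not tested.

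Divergent-pair summits ranked lower than those of single promoters. Their median signal was 679, against 747 at single promoters and 771 at summits away from coding promoters. On a scale from 0 for the weakest to 100 for the strongest peak of a list, the median rank percentile was 43.1, 43.7 and 43.4 in replicates 1, 2 and 3, and 49.5, 49.8 and 49.6 for single promoters. The ranges did not overlap, and the difference was -6.30 ± 0.153 (SD, n = 3, lower in 3 of 3 replicates, exact sign-flip p = 0.25). It was -3.71 with 1 TSS per gene and -3.86 among the 5597 strongest peaks. Of the 100 strongest peaks 4 lay at divergent pairs and 18 at single promoters, and of the 1000 strongest 81 and 221. The last 1000 held 158 summits of divergent pairs and 266 of single promoters. With the IDR-thresholded list split by signal into 10 bins of equal size, the share at divergent pairs was 8.40% in the strongest bin and 15.2% in the weakest.

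**Figure D3:**
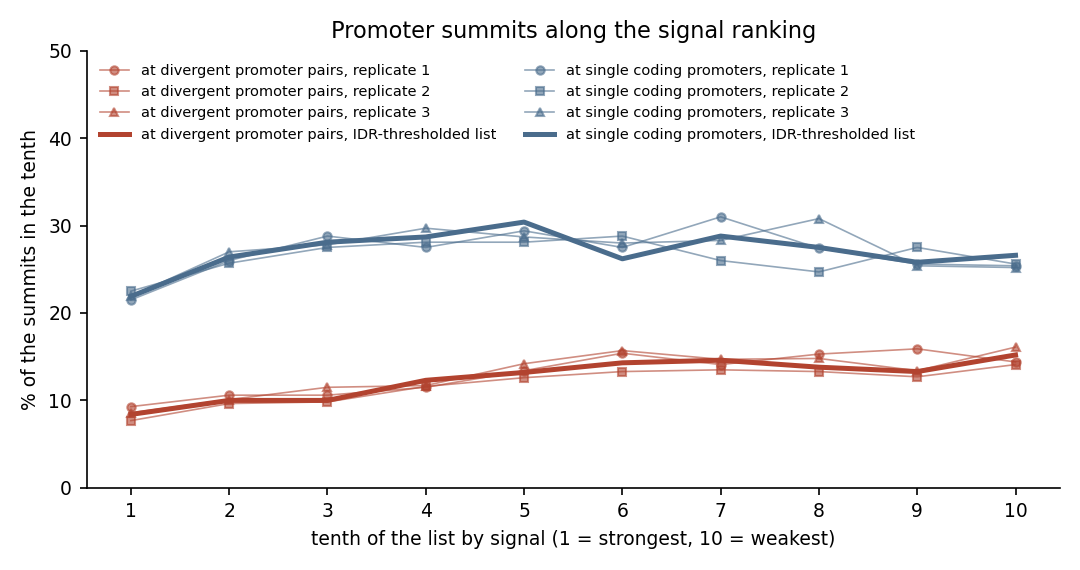
Percent of the summits in each of 10 equal bins of a list, ordered by signal with the strongest at 1, that lie at divergent promoter pairs (red) or at single coding promoters (blue). Thin lines are the 3 replicates and thick lines the IDR-thresholded list, in which the divergent share is 8.40% in bin 1 and 15.2% in bin 10.

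Recovery in the replicates did not separate divergent-pair summits from those of single promoters. Among the strongest peaks of replicates 1, 2 and 3, 87.3%, 78.9% and 88.8% of divergent-pair summits were found again within 100 bp, against 86.7%, 84.0% and 90.7% at single promoters. Divergent pairs were the higher in replicate 1 and the lower in replicates 2 and 3. As the IDR-thresholded list was derived from replicates 2 and 3, only replicate 1 is independent of it, with a difference of 0.566 points. Over the 3 replicates the difference was -2.17 ± 2.87 percentage points (SD, n = 3, exact sign-flip p = 0.5), and without replicate 2 it was -0.682. All 3 replicates held 914 divergent-pair summits (65.3%) among their strongest, against 2147 of 3027 at single promoters (70.9%). In the full lists of 30000 peaks all 3 replicates held 1222 of the 1400 (87.3%), and each of the 1400 was in at least 1. Presence in at least 1 is favoured by how the IDR-thresholded list was derived.

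The strongest summits belonged to pairs of varied function. HemK2 and Snapin, which share a TSS opposite Tnpo-SR on 2L, had the strongest summit of any divergent pair, with rank 35, and ranks 31, 53 and 35 in replicates 1, 2 and 3. Tnpo-SR encodes an import receptor of SR splicing proteins. RpS19b/CG5854 on 3R followed at rank 81, inside CG5854 and 264 bp from its TSS. AGO1, the Argonaute of microRNAs, faces mRpL53 and CG33155 on 2R across 170 bp and had a summit near the middle with rank 86. CG8031/CtBP, with the corepressor gene CtBP, ranked 96. CG34213/or ranked 121, and or encodes a subunit of the AP-3 adaptor of pigment granules. Paip1/Dark ranked 127 and Rnb/Drice 195, and Dark encodes the apoptosome scaffold and Drice an effector caspase. These summits ranked from 31 to 226 in the 3 replicates, except that of Rnb/Drice, with rank 372 in replicate 2.

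The other 8 of the 15 strongest ranked from 148 to 237. U2af38/Stip1, a splicing factor gene beside a co-chaperone gene, ranked 152, and Hrb87F/B52, an hnRNP gene beside an SR protein gene, ranked 185. Plap/CG31922 ranked 148 and the innexin gene ogre with bou ranked 190. Hr3, a nuclear receptor gene of the ecdysone response, faces the histidine decarboxylase gene Hdc on 2R, and the pair had 3 summits, the strongest inside Hdc at rank 205. Mco4/Srx ranked 209, Acbp1/Piezo 215 and CG7841/Z600 237. Piezo encodes a mechanosensitive channel and Z600 an inhibitor of mitosis in the embryo.

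Among the pairs with the most summits, with ties ordered by rank, Cul5/Bicra had 4 summits, the best at rank 350. Cul5 is a cullin gene and Bicra a subunit gene of the SWI/SNF remodeller. Their closest TSSs were 65 bp apart, but only some of the 4 summits, the best among them, were assigned to these TSSs. The others were assigned to TSSs of the same genes that lie farther apart. Rox8/CG5986 also had 4, with a best rank of 1556, and sqh/dtn and the ecdysone-inducible ImpE3 with CG10903 had 3 each, with best ranks of 280 and 646. Among pairs with nearly touching TSSs, those of Diap2, a caspase inhibitor gene, and bug were listed at the same base, with a summit at rank 8157. Atg6/Pisd, 1 bp apart, ranked 4206, dpa/didum, 2 bp apart, ranked 7011, CG11710/mal, 2 bp apart, 8823, and CG3032/CG4593, 6 bp apart, 9350. The Atg6/Pisd summit lay 5 and 4 bp from these TSSs, and that of CG3032/CG4593 32 and 38 bp. The dpa/didum summit was farther, at 179 and 181 bp, and so was that of CG11710/mal, at 358 and 356 bp. dpa encodes the replication helicase subunit Mcm4 and Atg6 the fly Beclin. The CG11710/mal summit had rank 8176 in replicate 1 and no counterpart within 100 bp in the full lists of replicates 2 and 3.

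Ribosomal protein genes stood at the top of the gene lists. Over all genes of divergent pairs, 1888 of 5052 (37.4%) had a summit within 500 bp of their divergent TSS. For cytoplasmic ribosomal protein genes it was 37 of 55 (67.3%), and 34, 36 and 38 of them in replicates 1, 2 and 3. Their summits were not strong, with a median best rank of 6767. RpS28a, opposite the Wnt pathway gene Axn, was best at rank 855, followed by RpL19 at 2425. RpS19b counted as without a summit, because the summit of rank 81 at its pair lay 646 bp from its TSS. The 37 ribosomal protein genes that are not in divergent pairs had a promoter summit in 17 cases (45.9%), against 21.3% of all 8893 coding genes outside divergent pairs. Of the mitochondrial ribosomal protein genes at divergent pairs 20 of 58 (34.5%) had a summit, close to the share of all genes, led by mRpL53 at rank 86 and mRpS10 at 1081, and none of the 15 outside such pairs had one. These counts describe the lists and were not tested.

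The other housekeeping lists ranged from 10.5% to 50%. Membrane trafficking genes had a summit in 24 of 49 cases (49.0%), with the Golgi GTPase gene Rab6 at rank 1090 and the ESCRT gene Vps60 at 1189. Autophagy genes had one in 8 of 16 (50%), but in 8, 5 and 9 of 16 in replicates 1, 2 and 3. Mediator and general transcription factor genes had one in 15 of 36 (41.7%), with Taf11 at rank 465 and MED16 at 561. For proteasome genes it was 10 of 26 (38.5%), for translation factor and tRNA synthetase genes 18 of 50 (36.0%), for splicing genes 8 of 27 (29.6%) and for oxidative phosphorylation genes 12 of 44 (27.3%). The replication and cell cycle list was the lowest of the housekeeping lists, with 2 of 19 (10.5%), namely CycG at rank 3472 and Orc5 at 10587. Its symbol patterns leave out some such genes, among them dpa, named above with a summit. Outside divergent pairs 5 of 19 genes of this list (26.3%) had a promoter summit, against 21.3% of all coding genes there.

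Cuticle and chemosensory genes seldom had a promoter summit, in divergent pairs or outside them. Of 12 cuticle protein genes at such pairs none had one, and 1 had one in replicate 1. Of 26 chemosensory receptor genes only Gr63a, a subunit of the carbon dioxide receptor, had a summit (3.85%), at rank 8550 and opposite Lamtor4. Outside divergent pairs 5 of 105 cuticle genes (4.76%) and 1 of 153 chemosensory genes (0.654%) had a promoter summit. Only 3 of 17 ecdysone response genes are in divergent pairs. Hr3 and usp had a summit within 500 bp of that TSS, at ranks 3620 and 7667, and Hr39 had none. The line carries a tagged usp, and its part in the summit at usp was not tested. Of the 14 ecdysone genes outside divergent pairs 13 had a promoter summit.

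**Figure D4:**
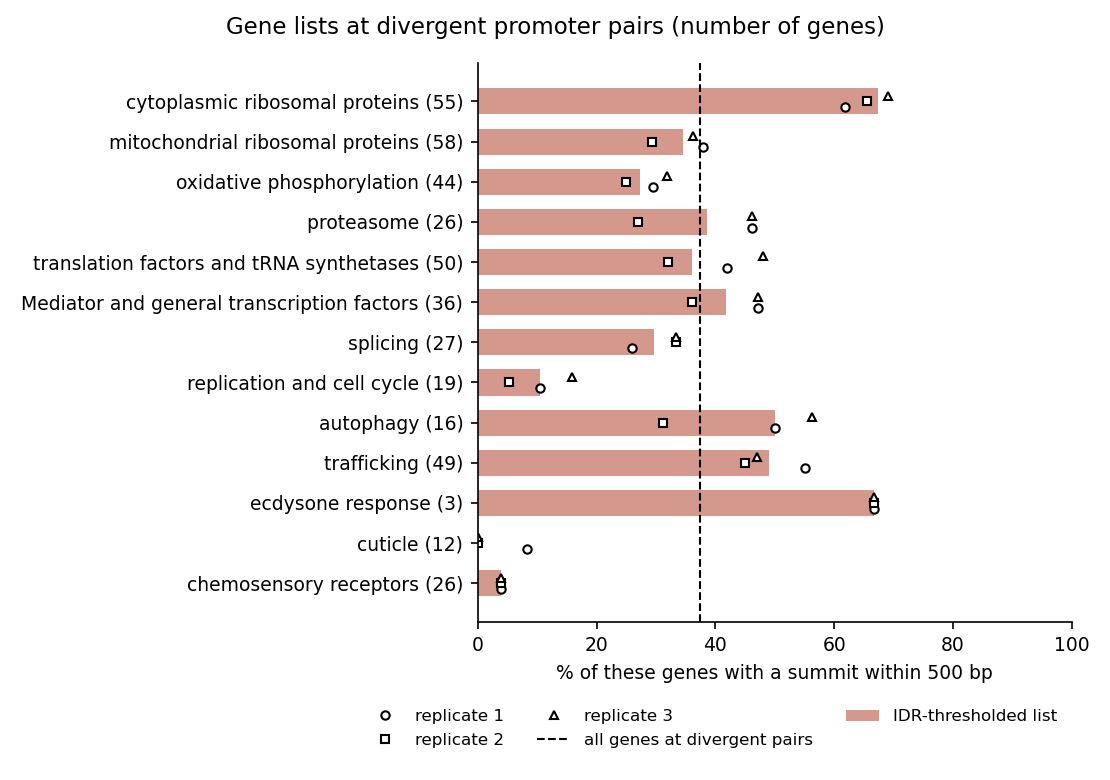
Percent of the genes of each list that are in divergent pairs and have a summit within 500 bp of their divergent TSS, with the number of such genes in parentheses. Bars are the IDR-thresholded list, symbols the 3 replicates, and the dashed line is the 37.4% of all genes at divergent pairs. Cytoplasmic ribosomal proteins reach 67.3%, and cuticle genes 0%.

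Over all TSS distances, summits of divergent pairs held the DRE, BEAF-32 core, motif 1 and TATA box letters more often than those of single promoters. GAGAG and the initiator were less frequent there. The DRE, bound by the factor DREF, lay within 100 bp of 5.47%, 4.61% and 6.42% of divergent-pair summits in replicates 1, 2 and 3, against 2.78%, 2.26% and 2.95% at single promoters. The groups did not overlap, and the difference was 2.84 ± 0.575 percentage points (SD, n = 3). The BEAF-32 core had a mean of 37.0% against 32.8% (4.23 ± 1.98 points), motif 1 had 3.58% against 1.97% (1.61 ± 0.389 points) and the TATA box letters had 23.3% against 18.3% (5.01 ± 0.0548 points). GAGAG, the core of the GAGA factor's site, had 25.1%, 27.2% and 26.9% at divergent pairs, against 39.5%, 41.0% and 40.3% at single promoters, a difference of -13.9 ± 0.471 points. The initiator (TCAGTT or TCAGTC) had a mean of 18.1% against 27.1% (-9.03 ± 0.457 points). Each of these differences had the same sign in 3 of 3 replicates and an exact sign-flip p of 0.25, or 0.292 after Benjamini-Hochberg adjustment over 14 motifs. All searches covered both strands. GC content within 100 bp moved with the group, 42.5% ± 0.627 at divergent pairs and 45.2% ± 0.446 at single promoters, as did the position relative to the TSS, and their part in the motif shares was not tested.

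**Figure D5:**
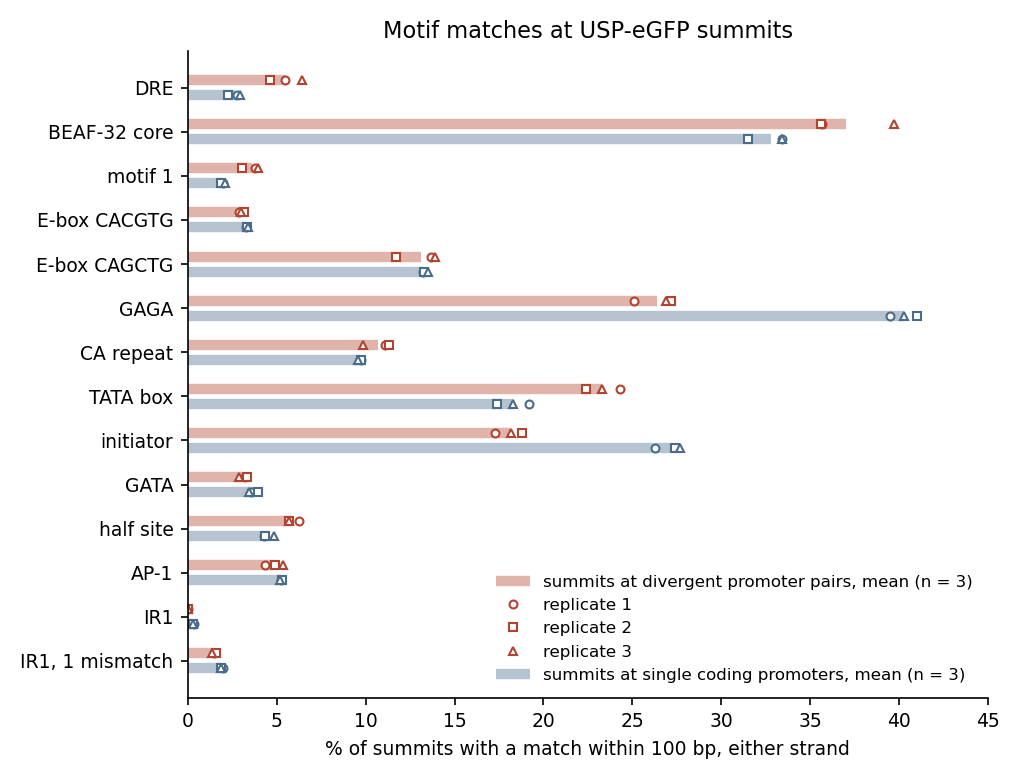
Percent of summits with a match of each motif within 100 bp on either strand, at divergent promoter pairs (red, upper of each pair) and single coding promoters (blue, lower). Bars are means over 3 replicates and symbols the replicates. The widest gaps are at GAGA, 26.4% against 40.3%, and the initiator, 18.1% against 27.1%.

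Within divergent promoters the DRE was about as frequent with a summit as without one. In the 300 bases from 250 before to 50 after the TSS, the DRE was in 15.2% of divergent promoters with a summit and in 15.4% of those without. Over all coding promoters 7.98% held it. For motif 1 the shares were 10.7% and 9.84% (5.23% of all promoters), for the BEAF-32 core 62.1% and 57.3% (45.7%), for GAGAG 27.0% and 22.7% (33.2%), for the TATA box 44.2% and 49.2% (42.3%) and for the initiator 25.3% and 30.2% (36.4%). At single promoters GAGAG was in 50% with a summit and in 33.3% without. Divergent and single promoters also differed where no summit lay. Without a summit, the DRE was in 15.4% of divergent and 4.06% of single promoters, and motif 1 in 9.84% and 2.51%. The BEAF-32 core was in 57.3% and 38%, and the TATA box in 49.2% and 42.3%. GAGAG was in 22.7% and 33.3%, and the initiator in 30.2% and 39.9%. The part of this in the differences at summits was not tested. Summits with a DRE nearby were 73 of the 1400 and ranked lower, with a median rank of 7404 against 6171 for the others. Of these 73 summits 57 (78.1%) lay between the TSSs. With TSSs up to 300 bp apart a DRE was near 9.72%, 6.48% and 9.31% of the summits in the 3 narrowest classes, and near 1.81% at 501 to 1000 bp. GAGAG ran the other way, near 18.1% of summits with TSSs at most 100 bp apart and 33.7% at 501 to 1000 bp. At single-promoter summits the IDR-thresholded shares were 2.81% (DRE), 2.05% (motif 1), 32.6% (BEAF-32 core) and 18% (TATA box). At 501 to 1000 bp the DRE and motif 1 (1.41%) were less frequent than that. The BEAF-32 core was near 41% to 56.5% of summits up to 300 bp, and 33.1% and 32.7% in the wider classes. The TATA box was near 36.2% and 26.2% at 201 to 300 and 301 to 500 bp, and 13.9% to 19.4% elsewhere.

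No divergent-pair summit had the IR1 element, the inverted repeat with a spacer of 1 base that EcR and USP bind, within 100 bp. It was found at 0 of 1400, against 9 of 3027 (0.297%) at single promoters and 0.606% of summits at no coding promoter. Counting error alone allows a share of up to 0.214% (3 counts of the total) or 0.263% (upper limit of the exact 95% binomial interval). Both limits take the summits as independent, but the 1400 lay in 1185 peak intervals. They therefore cannot decide whether the share is below that of single promoters. No IR1 was found at divergent-pair summits among the strongest peaks of any replicate either. IR1 occurs in 0.0623% of all coding promoters. Promoter shares were counted in the 300 bases from 250 before to 50 after the TSS. That is a longer stretch than the 100 bp on either side of a summit, so promoter and summit shares are not like for like. Allowing 1 mismatch gave 21 of 1400 (1.50%), against 56 of 3027 (1.85%) and 5.05%, and 0.551% of all coding promoters. The difference between divergent pairs and single promoters was -0.418 ± 0.130 points (SD, n = 3, exact sign-flip p = 0.25), and it was 0.0628 points for summits within 250 bp of the TSS. The single receptor core AGGTCA was more frequent at divergent pairs than at single promoters, with 6.22%, 5.66% and 5.67% in replicates 1, 2 and 3 against 4.27%, 4.32% and 4.85% at single promoters, a difference of 1.37 ± 0.570 points (SD, n = 3, exact sign-flip p = 0.25, adjusted 0.292). In the IDR-thresholded list it was near 6.21% of divergent-pair summits, 4.66% at single promoters and 6.96% at no coding promoter, and 5.69% of all promoters held it. The 87 divergent-pair summits with AGGTCA ranked 5571 at the median, against 6302 for those without. AGGTCA can overlap motif 1, as in AGGTCACACT at brun/CG2614, and such a stretch counts for both. Motif 1 was also more frequent at divergent pairs, by 1.61 points, and the part of this overlap in the AGGTCA difference was not tested.

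As no exact IR1 was found, 4 of the 21 sites with 1 mismatch are shown, chosen after their values were seen. The 13 bases of the site are in capitals, on the plus strand of dm6. They lie at chr2L:8162168-8162196 for Acbp1/Piezo, chr2L:19454309-19454337 for Top2/CG10026, chr3R:9631735-9631763 for Calr/SpdS and chr3L:9411003-9411031 for CG4022/Cpsf5, and the first 3 are in annotated exons.
Acbp1/Piezo: gctccaaaAGGTCATTGTCCCcgggtgtg
Top2/CG10026: gtcaccggAGCTCATTGAACTtgcacagc
Calr/SpdS: caacggatGGTTCAGCGAACTgcaggccg
CG4022/Cpsf5: cataatctAGTTCAACGAACCagttctgc
The site of Acbp1/Piezo was 85 bp from a summit of rank 215, with ranks 199, 215 and 230 in replicates 1, 2 and 3. That of Top2, the topoisomerase II gene, with CG10026 was 17 bp from a summit of rank 343, with ranks 406, 239 and 435. At Calr, the calreticulin gene, with SpdS the summit of rank 5976 fell at the centre of the site, with ranks 6386, 5433 and 6337. At CG4022/Cpsf5 the site was 75 bp from a summit of rank 2102, with ranks 1639 and 2194 in replicates 1 and 3 and no counterpart in replicate 2. These matches are descriptions of the letters and not mapped binding sites.

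Some divergent pairs outside the IDR-thresholded list recurred in the replicates. Of the 1497 pairs without a summit in that list 396 (26.5%) had one in the full lists of all 3 replicates, and 1530 of all 2667 pairs (57.4%) did so, while 861 pairs had none in any. The full lists hold 30000 peaks each, against 11195 in the IDR-thresholded list. The matching share for single promoters was not computed, so 26.5% cannot be read as a trait of divergent pairs. Dap160/pths on 2L, with the intersectin gene Dap160, ranked 2538, 2794 and 2485 in replicates 1, 2 and 3, within their strongest 11195. The pooled list had no summit within 500 bp of that pair, and the nearest one of the IDR-thresholded list was 15471 bp away. RanBP3/Rpt5 and Pop2/CG6928 likewise had no pooled summit within 500 bp, with ranks of 9226, 9436 and 6193 and of 10210, 3062 and 10178 in replicates 1, 2 and 3. The nearest summit of the IDR-thresholded list was 5223 bp from RanBP3/Rpt5 but only 517 bp from Pop2/CG6928, just past the limit, with rank 4370. AP-2alpha/ebi and Kap3/CG34348 stood in the pooled list at ranks 13183 and 11682, below the IDR-thresholded part, and their nearest IDR-thresholded summits were 628 and 697 bp away.

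At the limits of the definition, the summits at sqd, BtbVII and Sec63 were the last inside, 499, 497 and 497 bp from the TSS, with ranks 8149, 1426 and 5392. Those at Mhcl, Galk and Tgi were the first outside, at 501, 507 and 507 bp, with ranks 3586, 2646 and 9110. By the closest TSSs of each gene pair, the widest pairs counted, CG34034/CG5849, CG42866/CG16772 and CG31848/CG44085, had TSSs 995, 994 and 993 bp apart and no summit, and CG14014/CG18269, CG2217/mRpS18C and CG42740/mRpS18C, at 1003 bp, were the first left out.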

How the data were processed

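The deposited narrowPeak lists give for each peak the authors' signal, a score per peak not scaled between libraries, and the offset of the summit from the interval start. Per the file headers, reads were aligned to dm6 with a control alignment, and the pooled and IDR-thresholded lists come from replicates 2 and 3 only. The sources used here name no aligner, caller or IDR threshold, which are not given in them. Each replicate list and the pooled list hold 30000 rows. Chromatin was sheared to 200 to 800 bp, per the labels.

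Coding TSSs came from Ensembl release 115 (BDGP6.54 gene models) and sequence from RefSeq release 6. Summits were joined to TSSs within 500 bp with Python 3.11.15, numpy 2.4.6, pandas 2.3.3 and scipy 1.17.1, and figures drawn with matplotlib 3.10.9. A summit was found again if another lay within 100 bp. Differences were computed within each replicate and tested by exact two-sided sign flips over 3 replicates. The steps were tested on simulated data. Regions are not replicates. Nothing in the labels beyond biological replicate numbers shows how the larvae were collected.

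Named pairs were the 15 strongest, the 5 with most summits, the 5 with the smallest distance, up to 4 genes per list, the 5 strongest recurrent pairs and the cases nearest each threshold. The members and lists were chosen with earlier results of these data known. Gene lists were symbol patterns, and 5 misplaced genes were taken out, Cpr (a P450 reductase) of the cuticle list and Orcokinin, Orco, Orct and Orct2 of the replication list, after the values were seen. Alternatives were other distances, 1 TSS per gene, 1 summit per interval, the 5597 strongest peaks, other motif windows and each replicate left out.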

Additional observations from a re-analysis of the deposited data

How the results depend on the processing

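Differences in bound TSSs, rank and recovery between divergent pairs and single promoters kept their sign under each alternative run, while several shares moved by more than the spread between replicates. The mean share of summits at divergent pairs was 12.7%. It was 10.6% for summits within 250 bp of a TSS and 15.7% within 1000 bp, 8.98% with TSSs up to 500 bp apart and 16.7% up to 2000 bp, 10.6% with 1 TSS per gene, 10.9% among the 5597 strongest peaks and 14.7% with a partner of any biotype. The share of these summits between the TSSs, 46.1%, was 52.0% and 37.1% for summits within 250 and 1000 bp, 45% and 51.0% with TSSs up to 500 and 2000 bp apart, 34.1% with 1 TSS per gene (24.9% of the bases), 33.0% for the TSS pair of smallest gap (25.2% of the bases) and 41.2% for isolated pairs, the last 2 alternatives having been chosen after the data were seen.

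Leaving out replicates gave shares of 12.4% to 13.1% and 44.5% to 48.8%, differences in bound TSSs of 13.6 to 16.1 points, in rank percentile of -6.36 to -6.21 and in recovery of -3.54 to -0.682 points. Over intervals with 1 summit, also chosen later, the difference in recovery was -2.64 points.

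Of 126 motif comparisons 116 kept their sign. CACGTG turned to 0.025 within 250 bp of a TSS and 0.139 with 1 summit per interval. CAGCTG turned to 4.20 with motifs within 200 bp, 2.11 with TSSs up to 500 bp apart and 0.409 without replicate 2, spanning -0.628 to 0.409 over left-out replicates. CA repeats turned to -0.586 with TSSs up to 500 bp apart and -1.0 within 250 bp of a TSS, GATA to 0.266 among the 5597 strongest peaks, AP-1 to 0.351 with motifs within 200 bp and IR1 with 1 mismatch to 0.0628 within 250 bp. The causes were not tested. Samples could not be paired between groups because there is no second group. The differences between promoter classes were paired within each replicate. Read depth is unknown, and 3 replicates cannot give a p under 0.25.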

Other observations

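Of the 14 motifs, the other 5 were compared in the same way. CA repeats (CACACACA) lay near 10.7% of divergent-pair summits and 9.68% of those at single promoters, the E-box CACGTG near 3.02% and 3.32%, the E-box CAGCTG near 13.1% and 13.3%, and the GATA site AGATAAG near 3.13% and 3.64% (means, n = 3). For the AP-1 site TGANTCA the means were 4.85% and 5.23%. Over all coding promoters the shares in the same order were 5.73%, 4.04%, 17.9%, 4.57% and 6.32%. These were counted in 300 bases per promoter, a longer stretch than the 100 bp on either side of a summit. The exact sign-flip p was 0.25, 0.25, 1, 0.25 and 0.5, and the adjusted p 0.292, 0.292, 1, 0.292 and 0.538. Intervals of divergent-pair summits in the IDR-thresholded list had a median width of 554 bp, against 650 bp at single promoters, but in the replicates' lists the widths were 476, 450 and 450 bp against 476, 450 and 503 bp.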
